A study of Mus musculus with 4 samples.

Results

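The genes described here encode the enzymes that make cholesterol and fatty acids, the proteins that control them and a pair of transporters that export cholesterol. A list of 36 genes was taken by name, and each gene was represented by a probe set that the array annotation assigns to it alone, the one of highest mean over the 4 arrays. In this way 33 of the 36 genes were measured, out of 22180 genes in all. Acat2, Idi1 and Scd2 had no probe set of their own and were not analysed here. Expression was compared between resting and proliferating Tregs, that is, regulatory T-cells, which express Foxp3 and dampen immune responses. The cells came from NOD mice, which become diabetic through autoimmunity. By the sample labels, both groups came from co-cultures of 5 days with G-BMDCs, bone marrow cells turned into dendritic cells by GM-CSF, and were separated by dilution of a fluorescent dye, which the labels call CFSE and the methods Cell Trace Violet. Resting cells had kept the dye and proliferating cells had diluted it. Each group had 2 arrays, with no other treatment or allele in the labels, and neither age nor sex of the donors of the array RNA is given in the sources used here. No source says whether samples of a group were separate cultures, so p-values here reflect no more than how far these samples differ, and that spread may be technical.

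Cholesterol synthesis begins with acetyl-CoA, passes through mevalonate and the isoprenoid farnesyl diphosphate, and commits to sterols when farnesyl units are joined to squalene. Fatty acid synthesis uses the same acetyl-CoA, and its products are then lengthened by elongases and given double bonds by desaturases. Both branches are targets of the SREBP transcription factors, which the sterol sensor SCAP escorts to the Golgi for activation and which INSIG proteins hold back in the endoplasmic reticulum when sterols are plentiful. Dividing lymphocytes need new membrane, and the SREBP pathway is known for its part in T-cell proliferation.

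The deposited values are log2 expression values, read as such from the processing notes and their range. Proliferating minus resting differences were tested with limma across all genes, and a gene was called at a Benjamini-Hochberg adjusted p under 0.05. All 8 defining genes of Tregs that were looked up were measured and were higher in proliferating Tregs. Such a difference between groups does not test whether either group consists of Tregs. The summed linear signal of the 8 genes was 1400 and 1380 in resting and 8670 and 8890 in proliferating Tregs. Foxp3 stood at 8.30 and 8.26 in resting and 10.15 and 10.15 in proliferating Tregs, and the proliferation gene Mki67 at 6.82 and 6.93 against 9.13 and 9.23. Markers of other cells moved with the groups. The summed linear signal of 10 neutrophil markers was 11400 and 12600 in resting and 704 and 640 in proliferating Tregs, with all 10 lower, and that of 8 measured B-cell markers was 3640 and 3870 against 535 and 585, with all 8 lower. The sum of 16 measured dendritic and myeloid markers rose from 2500 and 2510 to 7370 and 6670, with 10 higher and 3 lower. The lower ones were H2-Aa, Flt3 and Zbtb46 (log2 fold changes -1.985, -0.77 and -0.63), and Itgax, which encodes CD11c, was not called (-0.21). The rise of the sum is therefore not shared by all markers of the list. The sum of 6 measured T-cell markers rose from 2550 and 2690 to 11100 and 10900, with all 6 higher and a median log2 fold change of 1.86. The largest differences within the neutrophil, B-cell and myeloid lists were, in that order, those of S100a9 and Camp (log2 fold changes -5.34 and -5.16), Cr2 and Cd79a (-3.52 and -3.34), and Clec4n and Pf4 (4.20 and 4.11). The part of these cells, and of the T-cell signal, in the results below was not tested. In such bulk RNA, fewer cells of a type and less RNA per cell cannot be told apart.

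Promoter sequences were examined because SREBP acts at the promoters of these genes together with the general factors NF-Y and Sp1. RefSeq promoters of build GRCm38.p6, running from 250 bases before to 50 bases after a transcription start, were available for 29 of the 36 genes. Both strands were searched for the letters TCACNCCAC, the core of the sterol regulatory element, CCAAT, the letters of NF-Y, and GGGCGG, the letters of Sp1. The last 150 bases before the start are shown for the sterol genes with the largest increases that had an entry (Ggps1, Ebp and Sc5d), for Hmgcs1, the gene with an exact match to the sterol element letters, and for Mvk, which did not change detectably. The sequences are given 5′ to 3′ on the strand of the gene, with the sterol element letters and the NF-Y letters (CCAAT, or ATTGG on the opposite strand) in capitals. They lie at chr13:14063489-14063638 (minus strand), chrX:8193513-8193662 (minus strand), chr9:42264301-42264450 (minus strand), chr13:119690201-119690350 (plus strand) and chr5:114444119-114444268 (plus strand).
Ggps1: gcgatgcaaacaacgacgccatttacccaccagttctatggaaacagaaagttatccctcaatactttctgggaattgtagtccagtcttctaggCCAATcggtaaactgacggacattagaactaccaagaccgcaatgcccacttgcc
Ebp: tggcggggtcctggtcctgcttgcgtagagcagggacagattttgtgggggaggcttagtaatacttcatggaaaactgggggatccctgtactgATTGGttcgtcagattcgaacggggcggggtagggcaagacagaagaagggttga
Sc5d: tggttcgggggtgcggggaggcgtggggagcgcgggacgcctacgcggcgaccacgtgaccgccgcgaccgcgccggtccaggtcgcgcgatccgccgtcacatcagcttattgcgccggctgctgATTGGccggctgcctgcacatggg
Hmgcs1: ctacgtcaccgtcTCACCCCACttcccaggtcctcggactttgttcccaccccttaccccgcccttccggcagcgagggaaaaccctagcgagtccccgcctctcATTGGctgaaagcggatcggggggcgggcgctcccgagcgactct
Mvk: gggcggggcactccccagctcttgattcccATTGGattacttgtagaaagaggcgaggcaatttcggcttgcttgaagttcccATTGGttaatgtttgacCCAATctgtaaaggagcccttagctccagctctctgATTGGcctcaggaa

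The sterol element letters occurred in 1 of the 29 promoter-matched genes, Hmgcs1, where they begin 137 bases before the start and overlap no NF-Y letters. Over all genes with a promoter entry 1.44% held them. NF-Y letters occurred in 23 of the 29 genes (79.3%), against 41.1% of all genes and 41.0% of the genes whose mean level on the arrays was above the median. In the sterol branch they occurred in 15 of 16 genes (93.8%) and in the fatty acid branch in 4 of 7 (57.1%). Counted over single promoters, since some genes have several, the shares were 63.2% of 38 for the listed genes and 37.4% of 32851 for all genes. All 9 sterol genes that rose and had an entry held NF-Y letters, as did all 5 measured sterol genes that were not called. Counted by gene, the letters thus did not separate the genes that rose from those not called. Over single promoters they occurred in 9 of 9 and 5 of 8 (62.5%), since Pmvk and Dhcr7 also have promoters without them. Mvk, with 4 matches in the stretch shown, had more than each of the 3 strongly raised genes, with 1 match each. Sp1 letters occurred in 23 of the 29 genes (79.3%), against 38.2% of all genes and 63.7% of genes above the median level. These matches describe letters in a window and not bound sites. Only exact matches were sought, so a gene without one may still hold a variant of the element.

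Most sterol synthesis genes were higher in proliferating Tregs. Of 17 measured genes of the branch, 12 rose, none was lower and 5 were not called, whereas 25.6% of all genes were higher and 34.5% lower. Among the 11090 genes above the median level, a class to which 15 of the 17 belong, 43.3% were higher and 28.2% lower. The median log2 fold change of the branch was 0.81 (1.75-fold) and its range -0.0575 to 1.68, beside a median of -0.17 over all genes. At a log2 fold change of at least 1 in addition, 6 of the 17 rose, against 12.6% of all genes higher and 4.42% lower by that measure. Above the median level, 2551 of the 11090 genes were higher and 572 lower by it. The direction rests on the scaling of the arrays. It was the same on the deposited values, after quantile normalization (11 higher, none lower) and after centring on the median (13 higher, none lower), but after centring on housekeeping genes none was higher and 12 were lower. The 10 measured housekeeping genes themselves all rose, by 0.35 (B2m) to 3.52 (Hprt) on the log2 scale, and centring on them moved the median of all genes by -1.39.

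**Figure D1:**
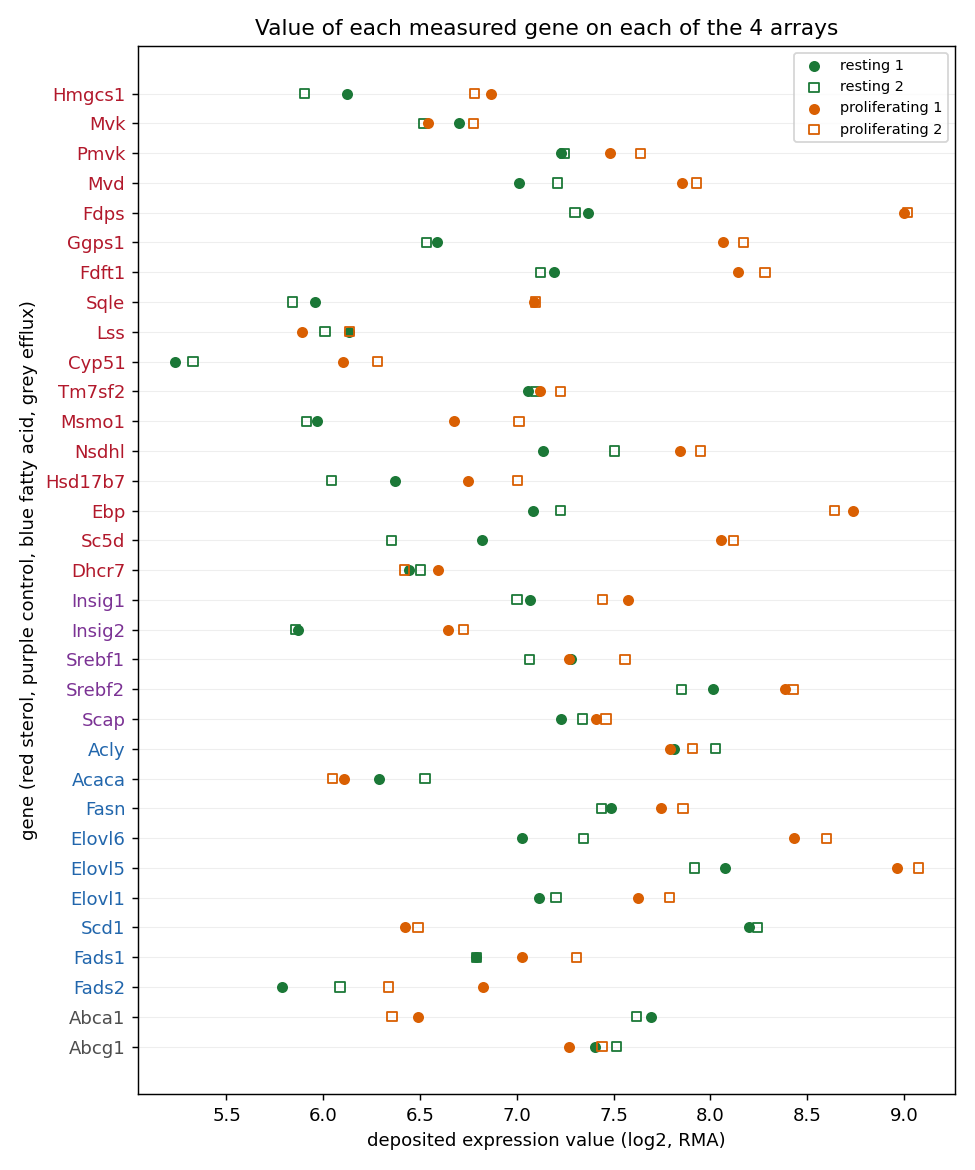
Deposited log2 expression value (horizontal axis) of each of the 33 measured genes (vertical axis, in pathway order) on each of the 4 arrays, with resting arrays in green, proliferating arrays in orange, replicate 1 as filled circles and replicate 2 as open squares. Fdps and Ebp show well separated groups, Lss and Dhcr7 overlap, and Scd1 and Abca1 are the genes with resting arrays clearly on the right.

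The early part of the route, from acetoacetyl-CoA to the isoprenoids, rose at 4 of its 6 measured genes, beside 25.6% of all genes higher. Above the median level, where all 6 lie, 43.3% of genes were higher. Fdps, which encodes farnesyl diphosphate synthase, stood at 7.37 and 7.30 in resting and 8.999 and 9.02 in proliferating Tregs. Both proliferating arrays lay above both resting arrays by far more than replicates differed, and the change was 3.19-fold (log2 fold change 1.68, standard error 0.13, limma adjusted p = 4.50e-05). Ggps1 makes geranylgeranyl diphosphate, which is attached to small GTPases and does not lead to sterols. It stood at 6.59 and 6.53 in resting and 8.06 and 8.17 in proliferating Tregs, a 2.95-fold rise (adjusted p = 6.63e-05). These were the largest increases on the list. Hmgcs1, the HMG-CoA synthase whose promoter carries the sterol element letters shown above, rose 1.75-fold, from 6.12 and 5.90 to 6.86 and 6.78 (adjusted p = 0.00204). Mvd, the mevalonate diphosphate decarboxylase, rose 1.72-fold, from 7.01 and 7.21 to 7.86 and 7.93 (adjusted p = 0.00218).

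The mevalonate kinase gene Mvk and the phosphomevalonate kinase gene Pmvk, which act between Hmgcs1 and Mvd, were not called. Mvk stood at 6.70 and 6.52 in resting and 6.54 and 6.77 in proliferating Tregs, so that its groups overlapped, and the 95% interval of its log2 fold change ran from -0.29 to 0.39. That interval lies below the one of Fdps, 1.38 to 1.97. Pmvk stood at 7.23 and 7.25 against 7.48 and 7.64, with a log2 fold change of 0.32 and an adjusted p = 0.0651. Its groups did not overlap, as in 18000 of all 22180 genes. Pmvk passed the test as higher after median centring, with dim genes left out and with a trended, robust prior (adjusted p = 0.0102, 0.0281 and 0.0291). After housekeeping centring Fdps and Ggps1 kept a positive log2 fold change (0.29 and 0.17) that did not pass the test, whereas Hmgcs1, Mvd, Mvk and Pmvk were lower (-0.57, -0.60, -1.34 and -1.06).

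From squalene to cholesterol, 8 of 11 measured genes rose, beside 25.6% of all genes higher. Above the median level, where 9 of the 11 lie, 43.3% of genes were higher. Fdft1, the squalene synthase gene that commits farnesyl diphosphate to sterols, stood at 7.19 and 7.12 in resting and 8.14 and 8.28 in proliferating Tregs (2.08-fold, adjusted p = 4.56e-04). Sqle, which encodes squalene epoxidase, a flux-controlling enzyme of the route, stood at 5.96 and 5.84 against 7.09 and 7.10 (2.29-fold, adjusted p = 2.26e-04). In both genes the groups were apart by about 1 on the log2 scale while replicates differed by a small fraction of that. The oxidation of lanosterol at its methyl groups is begun by Cyp51 and carried on by Msmo1, Nsdhl and Hsd17b7. Cyp51 stood at 5.24 and 5.33 in resting and 6.10 and 6.28 in proliferating Tregs, and Msmo1 at 5.97 and 5.91 against 6.68 and 7.01 (log2 fold changes 0.91 and 0.90, adjusted p = 0.00108 and 0.00190). Nsdhl, at 7.13 and 7.51 against 7.84 and 7.95, and Hsd17b7, at 6.37 and 6.04 against 6.75 and 7.003, rose less, 1.49-fold and 1.59-fold (adjusted p = 0.0162 and 0.0102). The call of Nsdhl was lost without resting replicate 1 (log2 fold change 0.39, adjusted p = 0.118) and after quantile normalization (log2 fold change 0.27, adjusted p = 0.244), and that of Hsd17b7 without resting replicate 2 (adjusted p = 0.0900).

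The isomerase gene Ebp and the desaturase gene Sc5d, which act on the sterol ring near the end of the route, had the largest increases after Fdps and Ggps1. Ebp stood at 7.08 and 7.23 in resting and 8.74 and 8.64 in proliferating Tregs, a 2.90-fold rise (log2 fold change 1.54, standard error 0.13, adjusted p = 8.20e-05). Sc5d stood at 6.82 and 6.35 against 8.06 and 8.12, a 2.83-fold rise (log2 fold change 1.502, standard error 0.17, adjusted p = 3.31e-04). The resting arrays of Sc5d differed by more than those of any other sterol gene, yet both remained well below the proliferating arrays.

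The other 3 enzymes of this stretch did not change detectably. Lss, the lanosterol synthase gene, stood at 6.13 and 6.01 in resting and 5.89 and 6.14 in proliferating Tregs, and was the only measured sterol gene with a negative difference (log2 fold change -0.0575, adjusted p = 0.744). Dhcr7, which encodes the last reductase of the route, stood at 6.44 and 6.50 against 6.59 and 6.42 (95% interval of the log2 fold change -0.28 to 0.34). Tm7sf2, a sterol reductase gene whose step can also be carried by Lbr, stood at 7.06 and 7.10 against 7.12 and 7.23 (-0.20 to 0.39). Lbr, which is outside the list, rose from 7.76 and 7.73 to 8.54 and 8.76 (log2 fold change 0.91, limma adjusted p = 0.00115). The groups of Lss and of Dhcr7 overlapped. The intervals of Lss, Dhcr7 and Tm7sf2 lie below those of Sqle, Ebp and Sc5d, so the genes of the route did not move by one amount. After housekeeping centring Fdft1, Cyp51, Msmo1, Nsdhl, Hsd17b7, Lss, Dhcr7 and Tm7sf2 were lower and Sqle was at -0.19, whereas Ebp and Sc5d were at 0.15 and 0.12, and none of Sqle, Ebp and Sc5d passed the test.

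**Figure D2:**
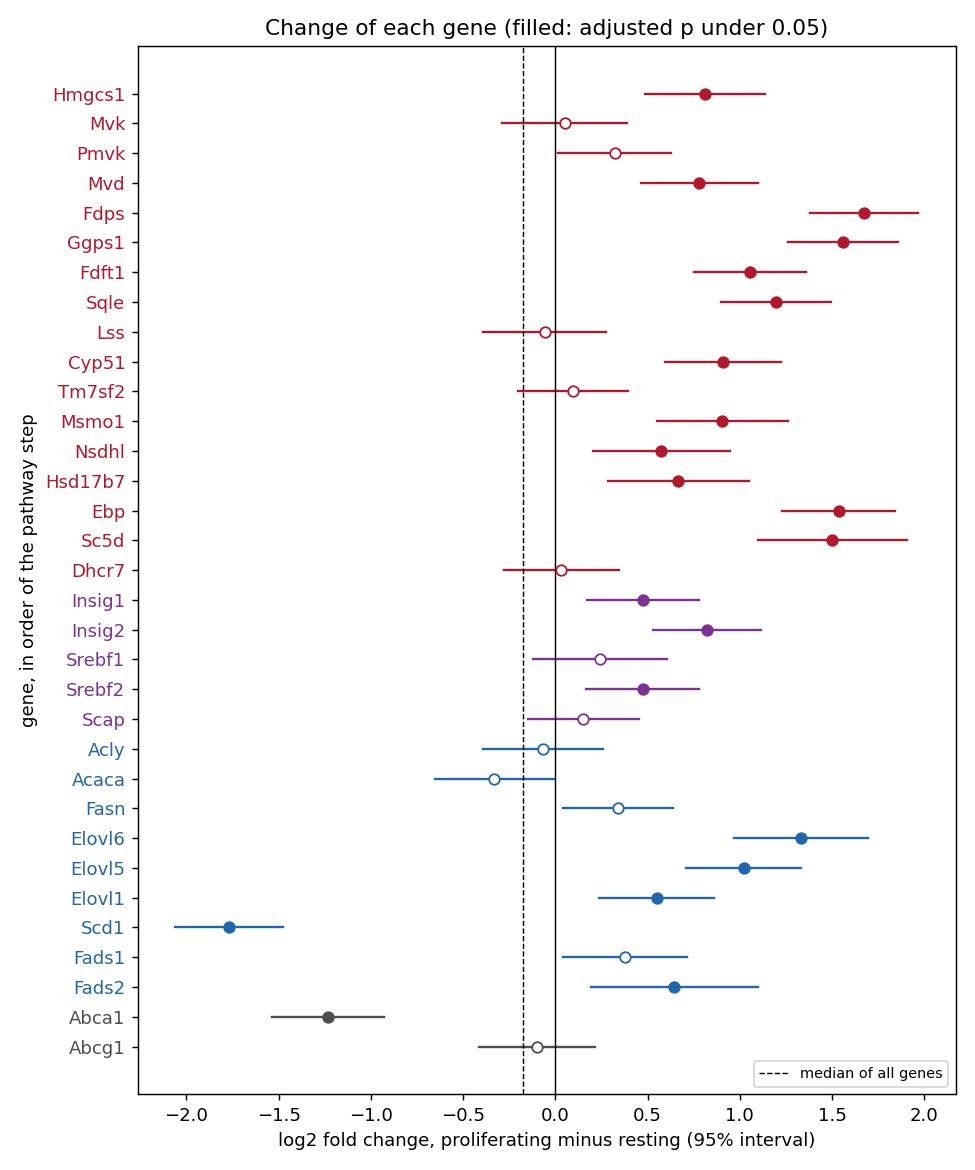
Log2 fold change, proliferating minus resting, of each of the 33 measured genes in pathway order (points) with its 95% interval from limma (lines), filled where the adjusted p was under 0.05. Red marks the sterol branch, purple the SREBP control genes, blue the fatty acid branch and grey the efflux genes, and the dashed line marks the median of all genes, -0.17. On these deposited values, though not after housekeeping centring, 12 sterol genes are filled and to the right of 0, and Scd1 and Abca1 are the filled points to the left of it.

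Genes that control the pathway were also measured. Of 5 measured genes, 3 rose and none was lower (25.6% and 34.5% of all genes), with a median log2 fold change of 0.47. Above the median level, where 4 of the 5 lie, 43.3% of genes were higher and 28.2% lower. Srebf2, which encodes the SREBP that acts mainly on sterol genes, stood at 8.01 and 7.85 in resting and 8.39 and 8.43 in proliferating Tregs (1.39-fold, adjusted p = 0.0161). Insig2 stood at 5.87 and 5.86 against 6.65 and 6.72 (1.77-fold, adjusted p = 0.00125), and Insig1, itself a target of SREBP, at 7.07 and 7.0 against 7.57 and 7.44 (1.39-fold, adjusted p = 0.0153). In each of the 3 the groups did not overlap. Nor did they in 18000 of all 22180 genes and in 9856 of the 11090 above the median level. Srebf1, whose product acts mainly on fatty acid genes, stood at 7.28 and 7.06 against 7.27 and 7.56, with groups that overlapped (95% interval of the log2 fold change -0.12 to 0.60). Scap stood at 7.23 and 7.34 against 7.41 and 7.46 (log2 fold change 0.15, adjusted p = 0.327), and its other probe set gave -0.31, also not called.

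With either resting array left out, and thus 1 resting array in the fit, Insig2 alone of the 5 genes was called. Insig1 then had log2 fold changes of 0.51 without resting replicate 1 and 0.44 without resting replicate 2 (adjusted p = 0.0685 and 0.0899), close to the 0.48 of all arrays. Srebf2 had 0.55 and 0.39 (adjusted p = 0.0507 and 0.105), against 0.47. The scaling changed directions. After quantile normalization Srebf2 was at -0.0457 and Insig2 alone was called. After median centring all 5 were higher, and after housekeeping centring all 5 were lower.

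The fatty acid branch moved in both directions. Of 9 measured genes, 4 rose, 1 fell and 4 were not called, beside 25.6% of all genes higher and 34.5% lower. Above the median level, where 7 of the 9 lie, 43.3% of genes were higher and 28.2% lower, so the share that rose was near the background. The median log2 fold change was 0.38 and the range -1.77 to 1.33. After housekeeping centring none of the 9 was higher and 8 were lower. Its first enzymes were not called. Acly, the ATP citrate lyase gene that supplies acetyl-CoA to both branches, stood at 7.81 and 8.03 in resting and 7.79 and 7.91 in proliferating Tregs, and its groups overlapped (95% interval of the log2 fold change -0.39 to 0.26). Acaca, the acetyl-CoA carboxylase gene that makes malonyl-CoA, stood at 6.29 and 6.53 against 6.11 and 6.05 (log2 fold change -0.33, adjusted p = 0.0727). Fasn, the fatty acid synthase gene, stood at 7.49 and 7.44 against 7.74 and 7.86 (log2 fold change 0.34, adjusted p = 0.0512). The groups of Acaca and of Fasn did not overlap, as in 18000 of all 22180 genes, and the differences had opposite signs. Fasn passed the test as higher after median centring, with dim genes left out, with the mean of probe sets and with the trended prior (adjusted p from 0.00791 to 0.0496), and as lower after housekeeping centring (-1.05), and Acly was called lower after quantile normalization (log2 fold change -0.50, adjusted p = 0.0205).

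All 3 elongase genes of the list rose, beside 25.6% of all genes higher and 43.3% of those above the median level. Elongase genes outside the list did not rise. Elovl3 was lower (log2 fold change -1.05), and Elovl2, Elovl4 and Elovl7 were not called (-0.38, -0.0940 and -0.0694). Elovl6, which lengthens palmitate, stood at 7.03 and 7.35 in resting and 8.43 and 8.60 in proliferating Tregs (2.51-fold, adjusted p = 3.45e-04). Elovl5, which lengthens polyunsaturated fatty acids, stood at 8.07 and 7.92 against 8.96 and 9.07 (2.03-fold, adjusted p = 6.00e-04). Elovl1, which makes very long saturated chains, stood at 7.11 and 7.20 against 7.62 and 7.79 (1.46-fold, adjusted p = 0.00953). The call of Elovl1 was lost without resting replicate 1 (adjusted p = 0.0748) and after quantile normalization (adjusted p = 0.0794). After housekeeping centring Elovl5 and Elovl1 were lower (-0.36 and -0.84) and Elovl6 was at -0.0559, not past the test.

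The measured desaturase genes did not move together. Scd1, the stearoyl-CoA desaturase that makes oleate and palmitoleate, stood at 8.20 and 8.24 in resting and 6.42 and 6.49 in proliferating Tregs. It was 3.40-fold higher in resting Tregs (log2 fold change -1.77, standard error 0.13, adjusted p = 3.68e-05), the largest difference of any gene on the list. The call held in all 15 alternative settings, including the 3 other scalings, with log2 fold changes from -3.15 to -1.53. Some of these settings could not have changed it. Scd1 has no other probe set, its change exceeds the minimum of 1, and housekeeping centring lowers every difference. Its near relative Scd3, which is no gene of the list, was at -1.001 (adjusted p = 9.73e-04), and how far the probe sets of these similar genes detect each other's RNA is not given in the sources used here. Fads2, the delta-6 desaturase gene, stood at 5.79 and 6.09 against 6.83 and 6.34 (1.56-fold, adjusted p = 0.0225), and its call was lost without resting replicate 1, resting replicate 2 or proliferating replicate 1 (adjusted p = 0.174, 0.0621 and 0.0756), whereas Fads1, the delta-5 desaturase gene, at 6.79 and 6.79 against 7.03 and 7.31, had an adjusted p = 0.0530 and passed as higher without proliferating replicate 1, with the trended prior, with dim genes left out and after median centring (adjusted p = 0.0173, 0.0278, 0.0205 and 0.0102). After housekeeping centring Fads1 and Fads2 were lower (-1.01 and -0.74). Without resting replicate 1, 2 genes of the branch were higher, Elovl6 and Elovl5.

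Of the efflux genes, Abca1 fell and Abcg1 was not called. Both transporters export cholesterol and are induced by the oxysterol receptors LXR, which also induce Scd1 and Srebf1. Abca1 stood at 7.69 and 7.62 in resting and 6.49 and 6.36 in proliferating Tregs, 2.35-fold higher in resting Tregs (log2 fold change -1.23, standard error 0.13, adjusted p = 2.14e-04), and the call held in all 15 alternatives (log2 fold changes from -2.62 to -1.002). As for Scd1, some of these alternatives could not have changed the call. Abcg1 stood at 7.40 and 7.51 against 7.27 and 7.44, and its groups overlapped (95% interval of the log2 fold change -0.42 to 0.21). The genes lower in proliferating Tregs, Scd1 and Abca1, were lower on the same arrays on which all 8 measured B-cell and all 10 neutrophil markers were lower, and the part of those cells was not tested.

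Set side by side, the sterol branch had a median log2 fold change of 0.81 and the fatty acid branch one of 0.38, a difference of 0.43, which is a description with no test. A shift of whole arrays cancels in this difference, which was therefore 0.43 under both centrings, and it was 0.49 after quantile normalization. It was 0.53 with the sterol branch taken from Fdft1 onward, 0.42 without Ggps1 and 0.35 without Acly. The share of genes called higher was 12 of 17 against 4 of 9, and the genes called lower numbered 0 and 1. Over all genes 25.6% were higher and 34.5% lower, and above the median level 43.3% and 28.2%. The fatty acid share was thus near that of genes above the median level. The spreads of the branches overlapped, since the elongase genes Elovl6 and Elovl5 rose by more than the median sterol gene and the differences of Mvk, Pmvk, Lss, Tm7sf2 and Dhcr7 were smaller than that of the median fatty acid gene. The plot of changes by group shows this overlap.

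**Figure D3:**
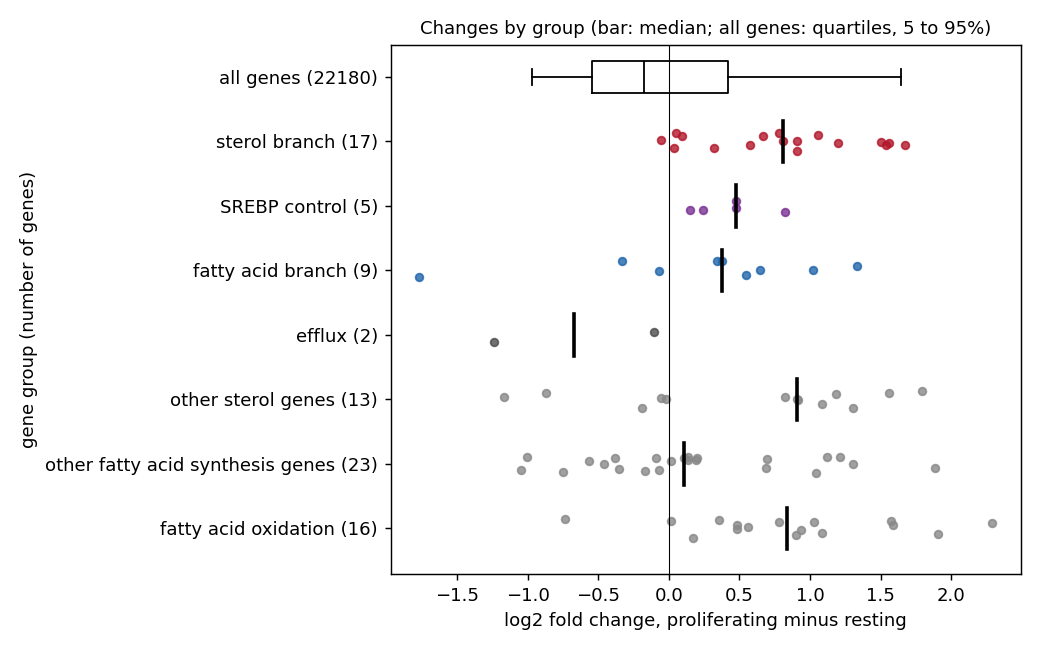
Log2 fold change, proliferating minus resting (horizontal axis), by gene group, with 1 point per gene and a black bar at the median, and for all 22180 genes a box of quartiles with whiskers from 5 to 95%. The sterol branch has its median at 0.81, the fatty acid branch at 0.38 and all genes at -0.17, and points of both branches overlap. Housekeeping centring moves all points by -1.39.

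Further genes of sterol handling, from a list of 20 of which 13 were measured, showed 8 higher, 2 lower and 3 not called, with a median log2 fold change of 0.91, beside 25.6% of all genes higher and 34.5% lower (43.3% and 28.2% above the median level). The largest increases were those of Npc2 (3.46-fold), which carries cholesterol out of lysosomes, Nus1 (2.94-fold), a subunit of the enzyme that makes dolichol from farnesyl diphosphate, and Lipa (2.46-fold), the lysosomal acid lipase. The genes that fell were Mylip, an LXR target whose product marks lipoprotein receptors for degradation, at -1.16, and Ch25h, the cholesterol 25-hydroxylase gene, at -0.87. Npc2 stood at 8.39 and 8.62 in resting and 10.28 and 10.30 in proliferating Tregs, and Mylip at 7.95 and 7.78 against 6.74 and 6.66. Npc2 and Lipa are abundant in macrophages. Of the 16 measured dendritic and myeloid markers 10 were higher, 3 were lower and 3 were not called, with the sums given above, and the part of such cells was not tested.

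Of 23 measured further genes of fatty acid synthesis and activation, 7 were higher, 6 lower and 10 not called, with a median of 0.11. These shares were near those of all genes, 25.6% higher and 34.5% lower. Acsl5 and Acsl4, which activate fatty acids with coenzyme A, rose 3.69-fold and 2.32-fold, and Hacd3, a dehydratase of chain elongation, rose 2.47-fold. Elovl3, Scd3 and Fads3 had the largest decreases, at -1.05, -1.001 and -0.75. In fatty acid oxidation, the opposite process, 12 of 16 measured genes were higher and 1 was lower, with a median of 0.84, whereas 43.3% of the genes above the median level, where 15 of the 16 lie, were higher and 28.2% lower. Etfa, Etfb and Acaa2 rose 4.88-fold, 3.75-fold and 3.01-fold, and Cpt1a, which admits fatty acids to mitochondria, was the gene that fell, from 7.69 and 7.83 to 7.005 and 7.04 (log2 fold change -0.73, adjusted p = 0.00236). These medians stand beside -0.17 for all genes and 0.20 for genes above the median level. Housekeeping centring moves every log2 fold change by -1.39, so that on that scale the medians of all 3 lists are below 0.

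**Figure D4:**
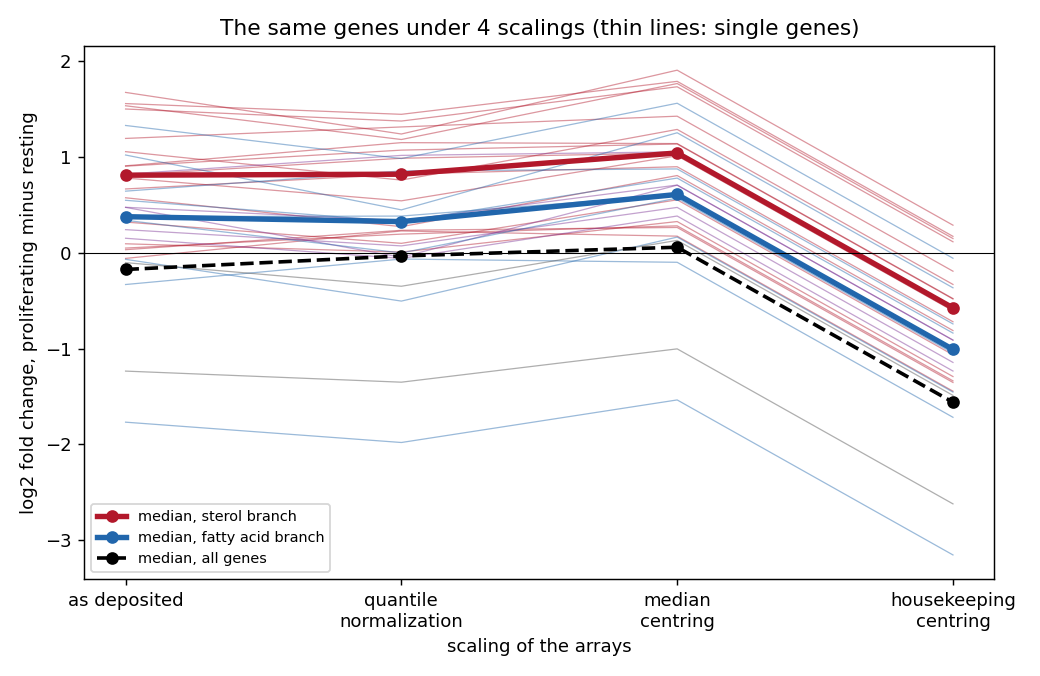
Log2 fold change, proliferating minus resting (vertical axis), under 4 scalings of the arrays (horizontal axis). Thin lines join the values of 1 gene, thick lines the medians of the sterol (red) and fatty acid (blue) branches, and the dashed line the median of all genes. The medians of both branches lie above that of all genes in each scaling, and fall below 0 after housekeeping centring (-0.57 and -1.01, with all genes at -1.56). Both centrings shift all genes alike and cannot change the gap between a branch and all genes.

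Relative to the median of all genes, the sterol branch lay higher in each scaling shown. Both centrings shift all genes of an array alike and cannot change this gap. Of the other scalings, only quantile normalization could have changed it. Its median was 0.81 beside -0.17 as deposited, 0.82 beside -0.0321 after quantile normalization, 1.04 beside 0.0590 after median centring and -0.57 beside -1.56 after housekeeping centring. For the fatty acid branch the corresponding medians were 0.38, 0.33, 0.61 and -1.01. The share of called genes that were higher, over all genes, was 42.7%, 54.4%, 64.3% and 4.75% in the same order, so that counts of higher and lower genes are to be read within 1 scaling.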

How the data were processed

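RNA of resting and proliferating Tregs was measured on 4 one-colour Affymetrix arrays, 2 per group. The authors deposited expression on a log2 scale, computed by RMA in Partek 6.6 according to their processing notes. RMA gives all arrays one probe signal distribution before probes are summarised, which can hide a change shared by most genes. The deposited values nevertheless differed in spread. Their SD across genes was 1.13 and 1.13 on the resting and 1.43 and 1.44 on the proliferating arrays. Quantile normalization, which gives arrays one distribution, took the bright gene Elovl5 from 1.02 to 0.45 and the dimmer gene Cyp51 from 0.91 to 1.15 (log2 fold changes). The methods differ: they describe normalization to housekeeping controls, R as software and a different array. No detection calls were used, and the number of arrays limits the precision.

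Of 41345 probe sets, 23521 had 1 gene name, of which 23328 matched the RefSeq table of GRCm38.p6 by identifier. Groups were compared over all 22180 genes in R 4.3.3 by limma 3.58.1 (lmFit, then eBayes), with no filter and no block, and Benjamini-Hochberg adjustment over all genes. The fit was tested on simulated data. No source pairs arrays, and deviations of arrays with the same number correlated at 0.0179 across genes. The genes, the lists and the rule for naming them (all genes of the list, and from other lists those of largest change) were chosen with earlier results of these data known.

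Results were recomputed with dim genes (below the median mean level) left out, with a trended and robust prior, the mean or the lowest probe set of a gene, quantile normalization, centring on the median or on housekeeping genes, leaving out each array, a replicate block, the methods' t-test (adjusted or not), a minimum log2 fold change of 1, and other memberships of the branches.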

Additional observations from a re-analysis of the deposited data

How the results depend on the processing

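Neither branch median kept its sign under housekeeping centring, where the medians were -0.57 and -1.01. That scaling gave 0 sterol, 0 fatty acid and 0 control genes higher and 12, 8 and 5 lower. The called genes that turned were Hmgcs1 (-0.57), Mvd (-0.60), Fdft1 (-0.33), Sqle (-0.19), Cyp51 (-0.48), Msmo1 (-0.48), Nsdhl (-0.81), Hsd17b7 (-0.72), Insig1 (-0.91), Insig2 (-0.56), Srebf2 (-0.91), Elovl6 (-0.0559), Elovl5 (-0.36), Elovl1 (-0.84) and Fads2 (-0.74). Over all genes this centring called 971 higher and 19485 lower. Quantile normalization turned Srebf2 (-0.0457), with 2 fatty acid genes lower and 1 control gene higher, and 5606 of all genes higher and 4702 lower. Median centring gave 5 control genes higher, branch medians of 1.04 and 0.61, a median of all genes of 0.0590, and 7269 of all genes higher and 4044 lower. With dim genes left out the median of all genes was 0.20, with 5122 higher and 3485 lower. The methods' t-test with adjustment called 5 sterol, 1 fatty acid and 1 control gene higher (2781 and 1531 of all genes higher and lower), and without adjustment 10, 4 and 3 (5022 and 5072). A minimum log2 fold change of 1 left 6, 2 and 0 higher. Leaving out each array in turn gave 2 to 4 fatty acid and 1 to 3 control genes higher, the lower ends without a resting array, where 1 array of the group remains and is taken to vary as the other group does. Without resting replicate 1 or 2, 3962 and 4428 of all genes were lower, against 7647. The median of all genes ranged from -0.17 to -0.16 when single arrays were left out. The replicate block left 12 sterol genes higher and changed no call of the 33 genes. The cause of these changes was not tested.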
